A study of Mus musculus with 7 samples.

Results

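The neurotransmitter receptors were the genes whose symbols name a receptor or receptor subunit for glutamate, GABA, glycine, acetylcholine, serotonin, dopamine, noradrenaline or tachykinin peptides. This rule found 71 of the 12393 genes that the arrays measured with a probe set naming exactly 1 gene, and no measured value entered it. Where several probe sets named a gene, the brightest on average was used. A receptor counted as above background, and was tested, if its value exceeded the 30th percentile of an array (4.82 to 4.95 on the log2 scale) on at least 2 arrays. That held for 22 of the 71 receptors, of which 19 were above it on all 7 arrays, and 49 were not tested.

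The cells came from brain tumours induced in mice of a C57/BL6 and FVB/N mixture by cerebral injection of RCAS PDGFB GFP on postnatal days 1 to 3. RCAS is an avian retroviral vector that enters only cells making its receptor tv-A, here driven by Nestin, and it brings in the growth factor PDGFB with green fluorescent protein. GFP+ DAPI- cells, DAPI being a dye that enters dead cells, were sorted from tumours taken at symptoms or at 12 weeks. All mice were p16-/-, the controls included, and were Ptprd+/+ (wild type, 2 arrays), Ptprd+/- (heterozygous, 2 arrays) or Ptprd-/- (called null, 3 arrays). Arrays of a genotype are labelled as biological replicates, and the number of mice behind each is not given. P-values therefore measure only the spread between these arrays. Ptprd encodes a receptor-type tyrosine phosphatase.

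Receptors of this kind are best known from synapses, but glial cells carry them too. Oligodendrocyte progenitors, the cells that PDGF-driven gliomas resemble, receive synapses from neurons through AMPA and GABA-A receptors. AMPA, kainate, NMDA and nicotinic receptors are ion channels that excite a cell, GABA-A and glycine receptors are chloride channels, and GABA-B, muscarinic, most serotonin, dopamine, adrenergic and tachykinin receptors act through G proteins.

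Ptprd RNA was at 10.86 and 10.89 (log2) on the wild-type arrays, 9.42 and 9.57 on the heterozygous arrays and 9.61, 8.95 and 9.93 on the null arrays. It thus separated wild type from the rest and did not separate heterozygous from null, and whether the probe set lies in the deleted part is not known here. Across probe sets, heterozygous arrays correlated with the arrays of the other genotypes at 0.976 to 0.987, against 0.990 to 0.995 between wild type and null. Heterozygous replicate 1 (Xist 11.16, Y-linked Eif2s3y 9.28) and null replicate 1 (12.73 and 8.69) carried transcripts of both sexes, unlike the other 5 arrays. Results are therefore also given without those 2 arrays. Markers of oligodendrocyte progenitors were high on all arrays, with Olig1 between 13.33 and 13.91 and Pdgfra between 12.90 and 13.74, and their list mean was 11.36 to 11.57 in wild type and null and 10.71 and 11.04 in heterozygous cells. Of 11 such markers tested, 7 were called lower in heterozygous than in wild-type cells (limma adjusted p below 0.05), against 5.95% of all genes. The mean of 23 microglia and macrophage markers was 5.09 to 5.70 in wild type and null and 6.27 and 6.64 in heterozygous cells. Of 20 tested, 16 were called higher in heterozygous than in wild-type cells, against 4.2% of all genes. The part of either list in the receptor differences was not tested. Neuronal markers had a list mean of 6.03 to 6.26 over all arrays. Of the 17 measured, Rbfox3, Syt1, Nefh, Gad2, Slc17a6 and Camk2a were above background on 0 arrays, and the other 11 were tested. Levels among these 11 ran from near background for Stmn2 (4.64 to 5.11) to 8.80 to 10.35 for Gad1, 8.97 to 10.08 for Snap25 and 9.48 to 10.29 for Dcx.

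The receptors above background belonged mainly to the glutamate and GABA families. All 4 AMPA subunits (Gria1 to Gria4), the kainate subunits Grik1, Grik2 and Grik5 and the delta receptor Grid1 were tested. So were Grin2d and Grin3b of 5 NMDA subunits, Gabra2, Gabra3, Gabrb1, Gabrg1 and Gabrp of 13 GABA-A subunits, the GABA-B subunit Gabbr1 and the glycine receptor subunit Glrb of 4. Among the other transmitters only Chrna4 and Chrnd of 14 nicotinic subunits, Htr1b and Htr3a of 13 serotonin receptors and Tacr3 of 3 tachykinin receptors were tested. No muscarinic (0 of 3), dopamine (0 of 3), alpha adrenergic (0 of 2) or metabotropic glutamate gene (0 of 1) passed, and beta adrenergic receptors were not analysed here.

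**Figure D1:**
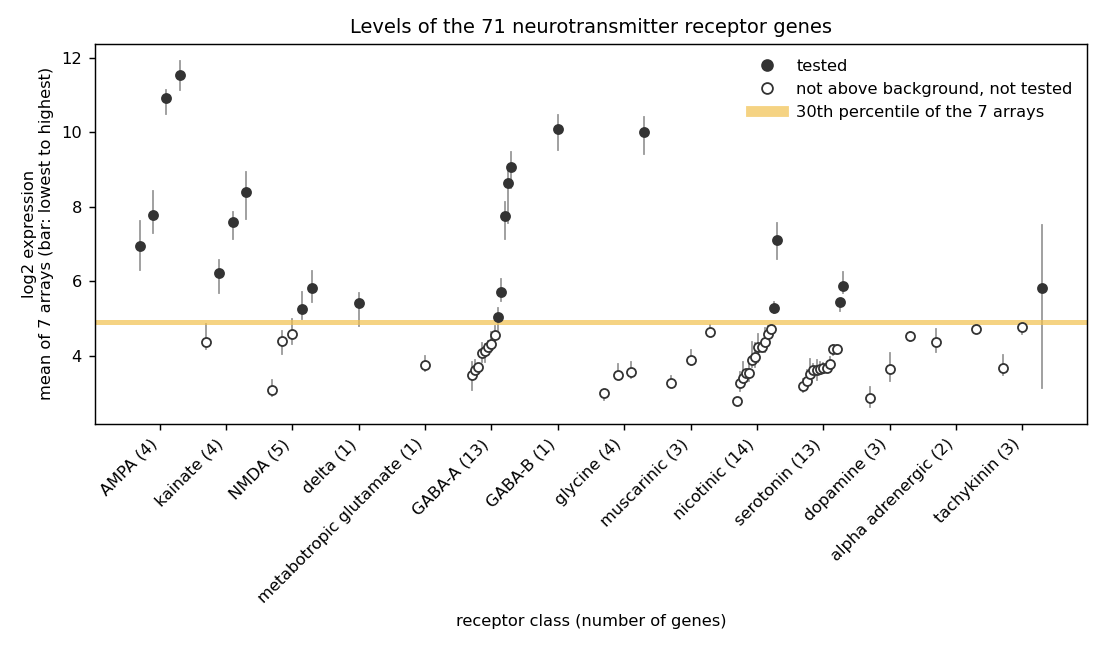
Log2 expression of the 71 receptor genes by class. Each point is the mean of a gene over 7 arrays and its bar runs from the lowest to the highest array. Filled points are the 22 receptors tested, open points the 49 not above background, and the band spans the 30th percentiles of the arrays. Levels of different probe sets depend on their probes and are not to be ranked. Tacr3 had the longest bar, from 3.13 to 7.50.

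The 49 receptors not tested had means between 2.77 and 4.76. Of these, 48 were above the 30th percentile on 0 arrays and Grin2c on 1. They were the glutamate receptor genes Grik3, Grin2a, Grin2b, Grin2c and Grm8, the GABA-A genes Gabra6, Gabrb2, Gabrd, Gabre, Gabrg3, Gabrq, Gabrr1 and Gabrr2, and the glycine receptor genes Glra1, Glra3 and Glra4. The acetylcholine receptor genes were Chrm1, Chrm3, Chrm4, Chrna1, Chrna2, Chrna3, Chrna5, Chrna6, Chrna7, Chrnb1, Chrnb2, Chrnb3, Chrnb4, Chrne and Chrng. The serotonin receptor genes were Htr1a, Htr1d, Htr1f, Htr2b, Htr2c, Htr3b, Htr4, Htr5a, Htr5b, Htr6 and Htr7. Drd2, Drd3, Drd4, Adra1b, Adra2c, Tacr1 and Tacr2 completed the set. Their group means differed by at most 0.37. Nearest the limit were Tacr2 at a mean of 4.76 on the dim side and Gabra3 at 5.04 on the bright side. These values are near background and do not show that the receptors were not made.

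The first comparison asks how receptor RNA differs after loss of 1 Ptprd allele. Tacr3, the receptor for neurokinin B, the kainate subunits Grik1 and Grik2, the glycine receptor subunit Glrb, the GABA-A subunits Gabrb1, Gabra2 and Gabrg1 and the AMPA subunit Gria3 fell in heterozygous against wild-type cells. These were 8 of the 22 receptors tested, and 0 rose. Tacr3 was below background on both heterozygous arrays and passed the filter only through the other groups, and without it 7 of 21 were called. Over all 9243 genes tested with limma, 5.95% were called lower and 4.2% higher (10.1% in all). The median log2 difference of the 22 receptors was -0.54 (-0.49 over the 21 without Tacr3), against -0.04 over all genes. Of the 22, 19 had a lower mean in heterozygous cells, Tacr3 among them, as did 55.1% of all genes. Because a receptor that is dim in every group could not be tested, the count says nothing about the other 49. In sorted bulk samples, fewer cells that carry a receptor and less of its RNA per cell cannot be told apart. Without the 2 arrays that carried transcripts of both sexes 1 heterozygous array is left, and calls ended for receptors and all other genes alike. Without null replicate 1, 2 or 3 the counts were 6, 6 and 5, where 7.75%, 8.25% and 7.35% of all genes were called. Each holds 5 of the 8 above, and the counts of 6 add Chrna4 and Gabbr1, respectively. Leaving out a wild-type or heterozygous array leaves 1 array in that group, and fewer than 8 receptors were called in each such fit.

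Among ion channels gated by glutamate, Grik1, which encodes the kainate subunit GluK1, was at 8.87 and 8.94 in wild type, 7.72 and 7.67 in heterozygous and 8.55, 8.45 and 8.64 in null cells. The heterozygous arrays lay below all others and hardly differed from each other. Grik1 fell 2.31-fold (log2 difference -1.21 ± 0.11, SE, limma adjusted p = 0.00396). Its difference was between -1.24 and -1.18 with any 1 array left out, and it was no longer called when wild type replicate 2 was left out (adjusted p = 0.0506) or without both arrays of mixed sex (-1.24, adjusted p = 0.0868). Grik2, which encodes GluK2, was at 6.56 and 6.49 in wild type, 6.06 and 5.67 in heterozygous and 6.24, 6.22 and 6.21 in null cells. It fell by 0.66 ± 0.14 (log2, SE, adjusted p = 0.0348), and this call held without heterozygous replicate 1 and in none of the other 6 fits with 1 array left out. Without both arrays of mixed sex the difference was -0.85 (adjusted p = 0.0988). The subunit Grik5, which needs partners such as these to form a channel, was at 7.65 and 7.63, at 7.12 and 7.60, and at 7.56, 7.64 and 7.85 in the 3 genotypes, with a difference of -0.28 (adjusted p = 0.331).

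The AMPA subunit Gria3 was at 11.01 and 11.13 in wild type, 10.49 and 10.68 in heterozygous and 11.12, 11.10 and 10.97 in null cells. The heterozygous arrays were again the lowest, at a smaller distance. Gria3 fell 1.40-fold (log2 difference -0.49 ± 0.12, SE, adjusted p = 0.0489), and this call ended with any of the 7 arrays left out (-0.58 to -0.39) and without both arrays of mixed sex (adjusted p = 0.222). Gria2, the subunit that keeps AMPA channels closed to calcium, was at 11.90 and 11.53, at 11.14 and 11.32, and at 11.73, 11.77 and 11.32 in wild type, heterozygous and null cells. Its heterozygous difference of -0.49 (-0.44 in its other probe set) did not pass the threshold (adjusted p = 0.149). Gria4 was at 7.59 and 8.42, at 7.30 and 7.29, and at 8.14, 7.68 and 7.98, a difference of -0.71 with adjusted p = 0.133. Gria1 was at 7.62 and 6.94, at 6.29 and 6.75, and at 6.59, 6.82 and 7.54, a difference of -0.76 with adjusted p = 0.203 (-0.68 in its other probe set). For all 4 AMPA subunits both heterozygous arrays were below both wild-type arrays. This held for 35.1% of all genes tested and for 18 of the 22 receptors, Tacr3 included. Both heterozygous arrays were above both wild-type arrays for 26.2% of all genes and for 2 receptors, Grin2d and Chrnd.

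The remaining glutamate receptor genes were near background and did not pass the threshold. The NMDA subunit Grin2d was at 4.98 and 5.19 in wild type, 5.70 and 5.20 in heterozygous and 5.26, 5.20 and 5.23 in null cells, and its heterozygous difference of 0.37 was the highest of the 22 receptors (adjusted p = 0.206). Grin3b was at 5.82 and 5.92, at 5.43 and 5.56, and at 6.28, 5.82 and 5.82, with a difference of -0.37 (adjusted p = 0.208). Grid1, which encodes a delta receptor that links synapses rather than passing current in response to glutamate, was at 5.50 and 5.48, at 4.79 and 5.32, and at 5.68, 5.67 and 5.40, with a difference of -0.43 (adjusted p = 0.177).

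**Figure D2:**
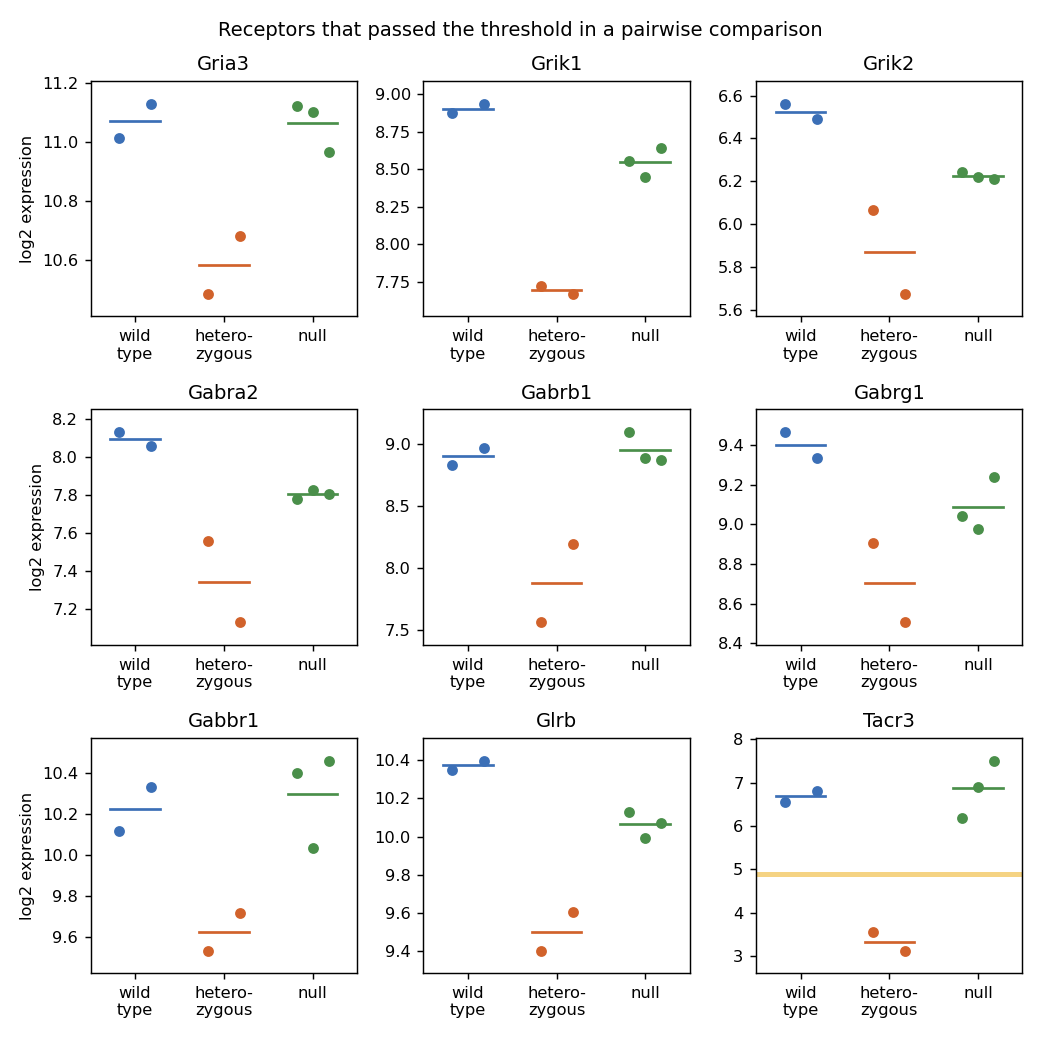
Log2 expression of the 9 receptors that passed the threshold in a pairwise comparison, by genotype. Each point is an array and each line a group mean (2 wild-type, 2 heterozygous and 3 null arrays), and the vertical axes do not start at 0. The band in the Tacr3 panel spans the 30th percentiles of the arrays. In every panel the heterozygous arrays lie below all others, and for Grik1, Grik2, Gabra2, Gabrg1 and Glrb the null arrays lie between the other genotypes.

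Among chloride channels, Gabrb1, a GABA-A beta subunit, was at 8.83 and 8.97 in wild type, 7.57 and 8.20 in heterozygous and 9.10, 8.89 and 8.87 in null cells. It fell 2.03-fold in heterozygous cells (log2 difference -1.02 ± 0.21, SE, adjusted p = 0.0297). The heterozygous arrays differed from each other, and the difference was -1.33 without heterozygous replicate 2 and -0.70 without heterozygous replicate 1, where the call ended, as it did without either wild-type array. Without both arrays of mixed sex it was -0.70 (adjusted p = 0.11). Gabra2, an alpha subunit, was at 8.13 and 8.06, at 7.55 and 7.13, and at 7.78, 7.82 and 7.80 in wild type, heterozygous and null cells. It fell by 0.75 ± 0.15 (log2, SE, adjusted p = 0.0274), with a call that ended without either wild-type array and without both arrays of mixed sex (-0.96, adjusted p = 0.0901). Gabrg1, a gamma subunit, was at 9.47 and 9.34, at 8.90 and 8.51, and at 9.04, 8.98 and 9.24. It fell by 0.70 ± 0.16 (log2, SE, adjusted p = 0.043), with a difference of -0.96 in its other probe set. The call ended with any of the 7 arrays left out (-0.89 to -0.50) and without both arrays of mixed sex (adjusted p = 0.118).

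These 3 subunits are encoded in 1 cluster of GABA-A genes. In RefSeq (GRCm38.p6) 0 protein-coding genes lie between Gabrg1 and Gabra2, 1 between Gabra2 and Gabra4, which was not analysed here, and 0 between Gabra4 and Gabrb1. Of the other GABA-A genes, Gabra3 was at 5.28 and 5.17, at 4.60 and 5.06, and at 5.06, 5.13 and 4.97 in wild type, heterozygous and null cells, a difference of -0.40 (adjusted p = 0.157). Its neighbours Gabre and Gabrq were not above background. Gabrp, the pi subunit, was at 5.80 and 5.64, at 5.46 and 5.50, and at 6.05, 5.80 and 5.70, a difference of -0.24 (adjusted p = 0.303). The members of the other GABA-A gene groups that were measured, Gabra6 and Gabrb2, Gabrg3, and Gabrr1 and Gabrr2, were not above background either.

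Glrb, the beta subunit that anchors glycine receptors at synapses, was at 10.35 and 10.40 in wild type, 9.40 and 9.60 in heterozygous and 10.13, 9.99 and 10.07 in null cells. It fell 1.83-fold in heterozygous cells (log2 difference -0.87 ± 0.11, SE, adjusted p = 0.01). The call ended without wild type replicate 1 or 2 or heterozygous replicate 1, while the difference stayed between -0.97 and -0.77, and without both arrays of mixed sex it was -0.77 (adjusted p = 0.101). Of its alpha partners, which bind glycine, Glra1, Glra3 and Glra4 were not above background on any array, and Glra2 was not analysed here. Gabbr1, which carries the GABA site of the GABA-B receptor, was at 10.12 and 10.33, at 9.53 and 9.72, and at 10.40, 10.03 and 10.46 in wild type, heterozygous and null cells. Its heterozygous difference of -0.60 did not pass the threshold (adjusted p = 0.0698), with -0.57 and -0.75 in its other probe sets above background.

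The tachykinin receptor Tacr3 differed most. It was at 6.56 and 6.80 in wild type, 3.55 and 3.13 in heterozygous and 6.19, 6.90 and 7.50 in null cells. Both heterozygous arrays lay below the 30th percentile and all others above it, so Tacr3 was tested only through the groups in which it was high and only a bound can be given. Against the 30th percentile of the heterozygous arrays, wild type was at least 3.44-fold higher (limma adjusted p = 0.00749). The fitted log2 difference of -3.34 is taken against background and is not a measured size. The call held in 6 of 7 fits with 1 array left out and ended without wild type replicate 2 and without both arrays of mixed sex (adjusted p = 0.0611). The second probe set of Tacr3 was between 4.52 and 4.73 on all arrays, below the 30th percentile throughout, and showed a difference of 0.02. With the mean of both probe sets the fitted difference was -1.66. The other tachykinin receptors, Tacr1 and Tacr2, were not above background.

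No receptor for acetylcholine or serotonin passed the threshold. Chrna4, the alpha subunit of the main nicotinic receptor of the brain, was at 7.36 and 7.49 in wild type, 6.67 and 6.59 in heterozygous and 6.80, 7.32 and 7.55 in null cells. Its heterozygous difference was -0.79 (adjusted p = 0.0698, and 0.0273 without null replicate 1), with -0.12 in a second, dimmer probe set. Its usual partner Chrnb2 was not above background. Chrnd, known from muscle, was at 5.18 and 5.14, at 5.31 and 5.35, and at 5.45, 5.29 and 5.29, a difference of 0.17. Htr1b, which lowers cyclic AMP, was at 5.75 and 5.78, at 5.82 and 5.69, and at 6.26, 5.72 and 6.01, a difference of -0.011. Htr3a, the only serotonin receptor type that is an ion channel, was at 5.49 and 5.21, at 5.49 and 5.49, and at 5.52, 5.49 and 5.50, a difference of 0.14.

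Promoters are shown for Tacr3, which had the widest range, for Glrb, and for the 3 clustered GABA-A genes, so that their starts can be compared. RefSeq promoters (GRCm38.p6, 250 bases before to 50 after the start) were given for 16 of the 22 receptors tested, and Grik1 and Gria3 were not among them. Each is printed 5′ to 3′ on the strand of its gene. Capitals mark matches, on either strand, to CAGCTG and CAGATG, forms of the E-box that basic helix-loop-helix factors bind, and to AACAAT, a core of SOX factor sites. The matches did not overlap. Tacr3 lies at chr3:134828757-134829056 (plus strand), Glrb at chr3:80913611-80913910 (minus), Gabrg1 at chr5:70842568-70842867 (minus), Gabra2 at chr5:71095800-71096099 (minus) and Gabrb1 at chr5:71657671-71657970 (plus, the first of 2 starts in the table).
Tacr3: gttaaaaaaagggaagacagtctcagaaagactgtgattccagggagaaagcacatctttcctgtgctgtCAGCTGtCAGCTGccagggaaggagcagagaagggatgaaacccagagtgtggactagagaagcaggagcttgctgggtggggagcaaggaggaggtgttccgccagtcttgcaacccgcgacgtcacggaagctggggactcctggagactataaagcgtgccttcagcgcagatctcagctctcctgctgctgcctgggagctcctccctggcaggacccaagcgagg
Glrb: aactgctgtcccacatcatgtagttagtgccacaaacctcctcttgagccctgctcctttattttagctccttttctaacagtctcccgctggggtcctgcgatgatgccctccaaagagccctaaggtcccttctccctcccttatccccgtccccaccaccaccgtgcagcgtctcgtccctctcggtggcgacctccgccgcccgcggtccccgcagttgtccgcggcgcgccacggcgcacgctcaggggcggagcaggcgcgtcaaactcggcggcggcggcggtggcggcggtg
Gabrg1: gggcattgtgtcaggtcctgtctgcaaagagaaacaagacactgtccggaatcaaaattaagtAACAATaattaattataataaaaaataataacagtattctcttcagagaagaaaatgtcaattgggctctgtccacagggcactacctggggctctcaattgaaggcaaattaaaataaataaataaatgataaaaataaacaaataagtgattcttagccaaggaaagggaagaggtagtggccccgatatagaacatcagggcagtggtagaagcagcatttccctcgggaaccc
Gabra2: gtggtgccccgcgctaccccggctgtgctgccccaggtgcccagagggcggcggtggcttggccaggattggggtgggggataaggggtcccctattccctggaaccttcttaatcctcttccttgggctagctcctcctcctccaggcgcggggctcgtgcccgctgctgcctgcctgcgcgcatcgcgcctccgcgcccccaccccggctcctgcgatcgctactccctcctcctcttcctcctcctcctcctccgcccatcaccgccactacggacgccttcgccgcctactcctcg
Gabrb1: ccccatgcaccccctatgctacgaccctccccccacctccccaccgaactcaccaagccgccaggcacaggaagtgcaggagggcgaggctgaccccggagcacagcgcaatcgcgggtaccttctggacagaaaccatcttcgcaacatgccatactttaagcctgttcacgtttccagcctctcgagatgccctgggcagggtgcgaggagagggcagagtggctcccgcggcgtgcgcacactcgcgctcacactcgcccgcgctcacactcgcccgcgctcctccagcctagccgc

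The promoters differed in composition although all 5 genes fell in heterozygous cells. Tacr3 held 2 copies of CAGCTG, which stands in 16.3% of 32851 mouse promoters of the same length, and Gabrg1 held 1 AACAAT, which stands in 10.7%. CAGATG, in 17.2% of promoters, was in none of the 5, and no motif was found in Glrb, Gabra2 or Gabrb1. CpG pairs numbered 30 in Glrb, 25 in Gabra2, 25 in Gabrb1, 8 in Tacr3 and 3 in Gabrg1, against a median of 7 over all promoters. Among the clustered GABA-A genes, Gabrg1 thus had few CpG pairs and Gabra2 and Gabrb1 many. A match is a description of these letters and not a binding site.

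The second comparison asks how receptor RNA differs after loss of both alleles. With limma 0 of the 22 receptors passed the threshold in null against wild-type cells, as did 0% of the 9243 genes, and 2 receptors, Grik1 and Glrb, and 475 genes had an unadjusted p under 0.05. The receptors' median difference was 0.02, with 11 lower and 11 higher, and their differences ran from -0.36 to 0.23. Grik1 was at -0.36 (95% interval -0.59 to -0.12, adjusted p = 0.882), with all 3 null arrays below both wild-type arrays, and Glrb was at -0.31 (-0.55 to -0.06). Gabrg1 at -0.31, Grik2 at -0.30, Gabra2 at -0.29 and Gabra3 at -0.17 likewise had groups that did not overlap. These were 6 of 22, where 11% of all genes were lower without overlap. Chrnd and Grin2d were higher without overlap, 2 of 22, where 10.7% of all genes were. The interval of Tacr3 was wide (0.18, -0.64 to 1.01), and its null arrays spread over 6.19 to 7.50. For Gria3 the difference was -0.0076 (-0.27 to 0.25) and for Gabrb1 0.05 (-0.39 to 0.50), so neither interval reached the heterozygous differences of -0.49 and -1.02.

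**Figure D3:**
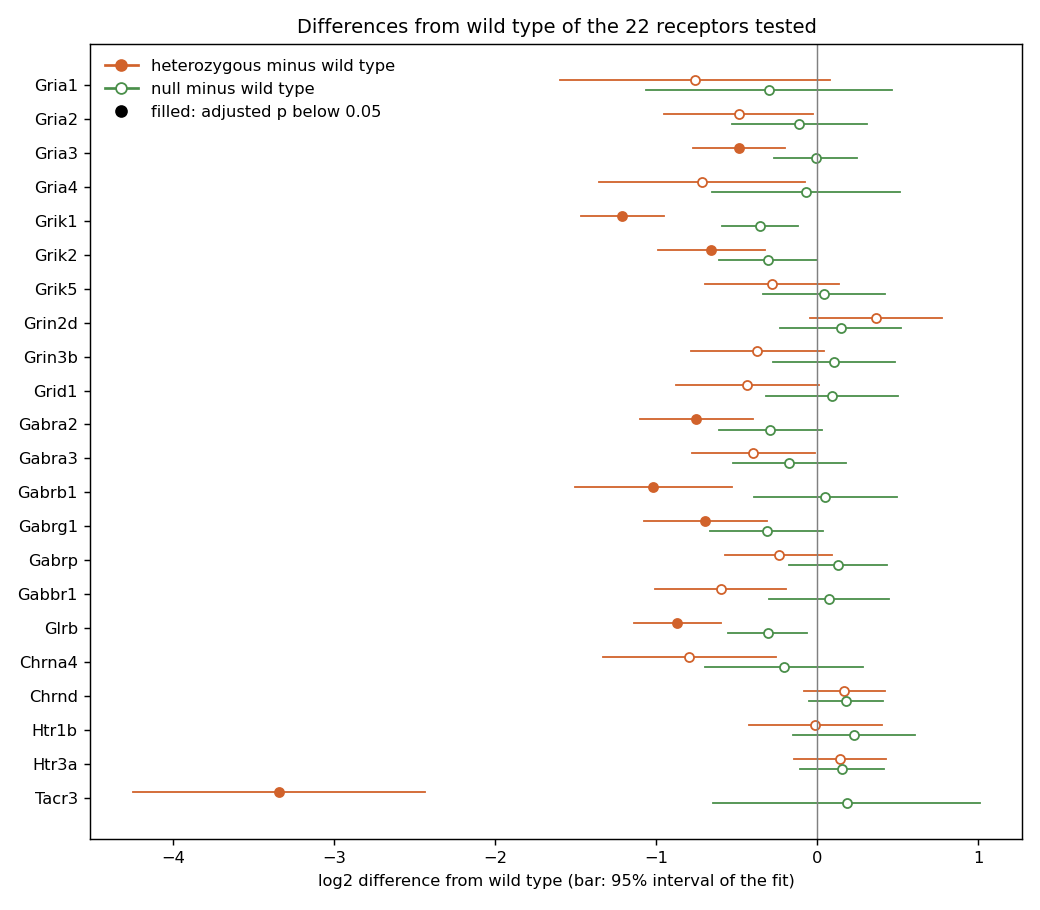
Log2 differences from wild type for the 22 receptors tested, heterozygous (orange) and null (green), which share the wild-type arrays. Points are fitted differences, bars their 95% intervals, and filled points passed the threshold over 9243 genes. The 8 filled points are all heterozygous and lie between -3.34 and -0.49, the lowest being Tacr3, whose heterozygous level was at background, and the null points lie between -0.36 and 0.23.

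The third comparison sets null against heterozygous cells and so tests whether both genotypes differ from wild type alike. Tacr3 (at least 3.91-fold against the 30th percentile of the heterozygous arrays, limma adjusted p = 0.00539), Gabrb1 (log2 difference 1.07 ± 0.19, SE, adjusted p = 0.0237), Grik1 (0.85 ± 0.10, adjusted p = 0.00867), Gabbr1 (0.67 ± 0.16, adjusted p = 0.0454), Glrb (0.56 ± 0.10, adjusted p = 0.0277) and Gria3 (0.48 ± 0.11, adjusted p = 0.0437) were higher in null cells. These were 6 of 22 receptors, against 5% of all genes higher and 3.96% lower (8.96% in all), and 0 receptors were lower. Without Tacr3, which was tested only through the groups in which it was high, 5 of 21 were called. All 3 null arrays were above both heterozygous arrays for 15 of 22 receptors, Tacr3 included, against 25.7% of all genes, and below them for 0, against 17.9%. This comparison shares the heterozygous arrays with the first, so the calls are not independent of those above. The fitted Tacr3 difference of 3.53, taken against background, became 1.81 with the mean of both probe sets. The Tacr3 call held with any 1 array left out, and the call of Grik1 ended only without heterozygous replicate 1 among such fits. The Gabbr1 call held without null replicate 2 alone among those fits, the Gria3 call in none, the Glrb call in 2 of 7 and the Gabrb1 call in 4 of 7. Without both arrays of mixed sex, which leaves 1 heterozygous array, calls ended for receptors and all other genes alike. The differences there were 0.88 for Grik1, 0.68 for Gabrb1, 0.53 for Gabbr1, 0.43 for Glrb and 0.35 for Gria3. Without null replicate 1, 2 or 3 the counts were 3, 5 and 2, where 3.14%, 7.92% and 2.22% of all genes were called. The count of 3 holds 2 of the 6 above and Chrna4. Fewer than 6 were also called in each fit that left 1 wild-type or 1 heterozygous array.

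Grik2, Gabra2 and Gabrg1, which fell in heterozygous cells, were not called in null against heterozygous cells (0.35, 0.46 and 0.38, adjusted p = 0.127, 0.0768 and 0.145). Their null means of 6.22, 7.80 and 9.09 lay between those of the other genotypes, and whether null cells differ from either was not settled at this number of arrays. A single F test over the 3 genotypes called Grik1 (adjusted p = 0.00674), Tacr3 (0.00958), Glrb (0.0199) and Gabrb1 (0.0386). The 4 of 22 receptors called, where 5.65% of all genes were, include Tacr3, tested only through the groups in which it was high. Fewer receptors, and a smaller share of all genes, were called in each fit that left 1 wild-type or 1 heterozygous array. The array on which a receptor was lowest was heterozygous replicate 1 for 11 and heterozygous replicate 2 for 8 (Tacr3 included) of the 22. These arrays were lowest for 30.4% and 11.2% of all genes.

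**Figure D4:**
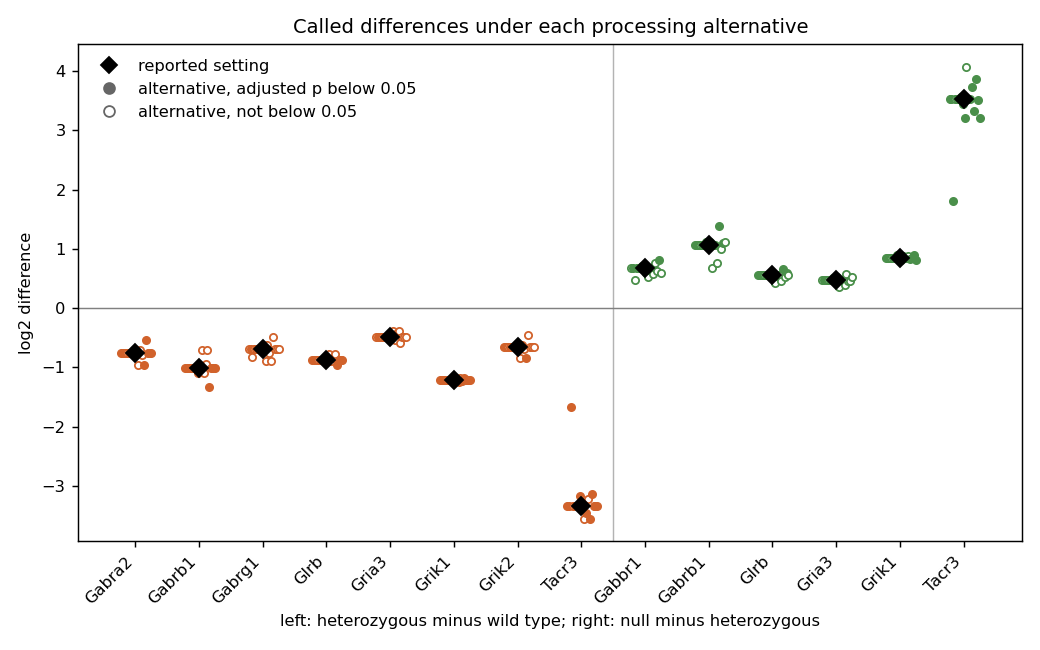
Called receptor differences (log2) under the reported setting (diamonds) and under each alternative (circles, filled where the adjusted p stayed below 0.05). The left part shows heterozygous minus wild type and the right part null minus heterozygous. All values keep their sign, and for Tacr3 the value nearest to 0 on each side comes from averaging both of its probe sets.

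Genes that make, carry or take up the transmitters, and those that act beside the receptors, were read from lists chosen by name. Of 3 genes tested in the tachykinin list, Tac1, which encodes substance P and neurokinin A, fell together with Tacr3. It was at 9.32 and 9.53 in wild type, 7.83 and 8.06 in heterozygous and 9.49, 9.13 and 9.56 in null cells, a fall of 1.49 ± 0.17 (log2, SE, adjusted p = 0.00777) that held in 6 of 7 fits with 1 array left out and ended without wild type replicate 2. In null against wild-type cells the difference was -0.036 (95% interval -0.41 to 0.34). In null against heterozygous cells Tac1 was higher by 1.45 ± 0.16 (adjusted p = 0.00697). The list's other tested gene was not called.

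Of 5 GABA and glycine synthesis and transport genes tested, 2 fell in heterozygous cells and 0 rose, against 5.95% of all genes lower and 4.2% higher. Gad1, which makes GABA from glutamate, was at 10.19 and 10.35, at 8.80 and 9.25, and at 9.99, 9.85 and 10.26 in wild type, heterozygous and null cells, a fall of 1.24 ± 0.19 (log2, SE, adjusted p = 0.0146, -1.33 in its other probe set), and its call ended without either wild-type array or heterozygous replicate 1. Abat, which breaks GABA down, fell by 0.72 (adjusted p = 0.048), and this call held in 1 of 7 fits with 1 array left out. Of 13 genes for scaffolds and trafficking of GABA and glycine receptors, only Slc12a5 was called, a share near that of all genes. It encodes KCC2, the chloride exporter that makes GABA inhibitory in mature neurons. Slc12a5 was at 7.50 and 7.46 in wild type, 5.88 and 5.62 in heterozygous and 7.01, 7.06 and 7.51 in null cells, a 3.31-fold fall (log2 difference -1.73 ± 0.19, SE, adjusted p = 0.0071), while a second probe set below background showed 0.097. The call ended with 1 array left out only where that was wild type replicate 2, as did that of Cacng5, described next.

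AMPA receptors carry auxiliary subunits and are held by scaffolds. Of 23 auxiliary and scaffold genes tested, 4 fell and 1 rose in heterozygous cells, and the others were not called, against 5.95% of all genes lower and 4.2% higher. The 4 include Olfm3, which was tested only through the groups in which it was high. The gene that rose was Cacng5, which encodes an auxiliary subunit (TARP) of AMPA receptors, at 6.73 and 6.47 in wild type, 8.82 and 9.97 in heterozygous and 6.05, 6.66 and 5.99 in null cells. Its rise was 6.94-fold (log2 difference 2.79 ± 0.38, SE, adjusted p = 0.011), with 0.73 in a second probe set below background. Cacng4, a related subunit, was at 11.63 and 11.56, at 10.98 and 11.19, and at 11.75, 11.59 and 11.61, a fall of 0.51 ± 0.12 (adjusted p = 0.0432) that held in 1 of 7 fits with 1 array left out. Olfm3, an olfactomedin that binds AMPA receptors, fell to below the 30th percentile on both heterozygous arrays, with wild type at least 2.78-fold higher, and its call ended without either wild-type array. Grip1, a scaffold of AMPA receptors, fell by 0.66 (a difference of -0.30 in a second probe set), with a call that held in 3 of 7 fits with 1 array left out.

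Of 13 glutamate synthesis and transport genes, 1 rose and 1 fell in heterozygous cells: the neutral amino acid carrier Slc1a5 (0.80, adjusted p = 0.0362) and the glutamine carrier Slc38a3 (-1.04, adjusted p = 0.043). Either call held in 2 of 7 fits with 1 array left out. Of 7 monoamine and acetylcholine synthesis and transport genes, 0 passed limma's threshold in any comparison. Of 51 G protein and cyclic AMP genes, 5 fell and 0 rose, against 5.95% of all genes lower and 4.2% higher. The share called in either direction was near that of all genes (10.1%), and the list median was -0.18 against -0.036 over all genes. Among the 5, Adcy8, an adenylate cyclase activated by calcium, was tested only through the groups in which it was high. It was below the 30th percentile on both heterozygous arrays (4.58 and 4.61) and at 6.37 and 6.64 in wild type, at least 3.05-fold higher. Its call ended without wild type replicate 2 or heterozygous replicate 1. Adcy2 fell by 0.53, a call that held in 1 of 7 such fits. In null against wild-type cells 0 genes of these 7 lists were called. In null against heterozygous cells 5% of all genes were called higher and 3.96% lower (8.96% in all). The share of the 51 G protein genes called was near that. This list held 3 higher genes, Adcy8 among them, and 2 lower genes. The latter were Gng4 (-1.96, and 0.013 in its other probe set) and Pde1a (-1.91), which breaks down cyclic nucleotides. Tac1, Gad1, Slc12a5 and Cacng5 were called in neither comparison without both arrays of mixed sex, where their heterozygous differences were -1.37, -1.02, -1.86 and 3.37.

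**Figure D5:**
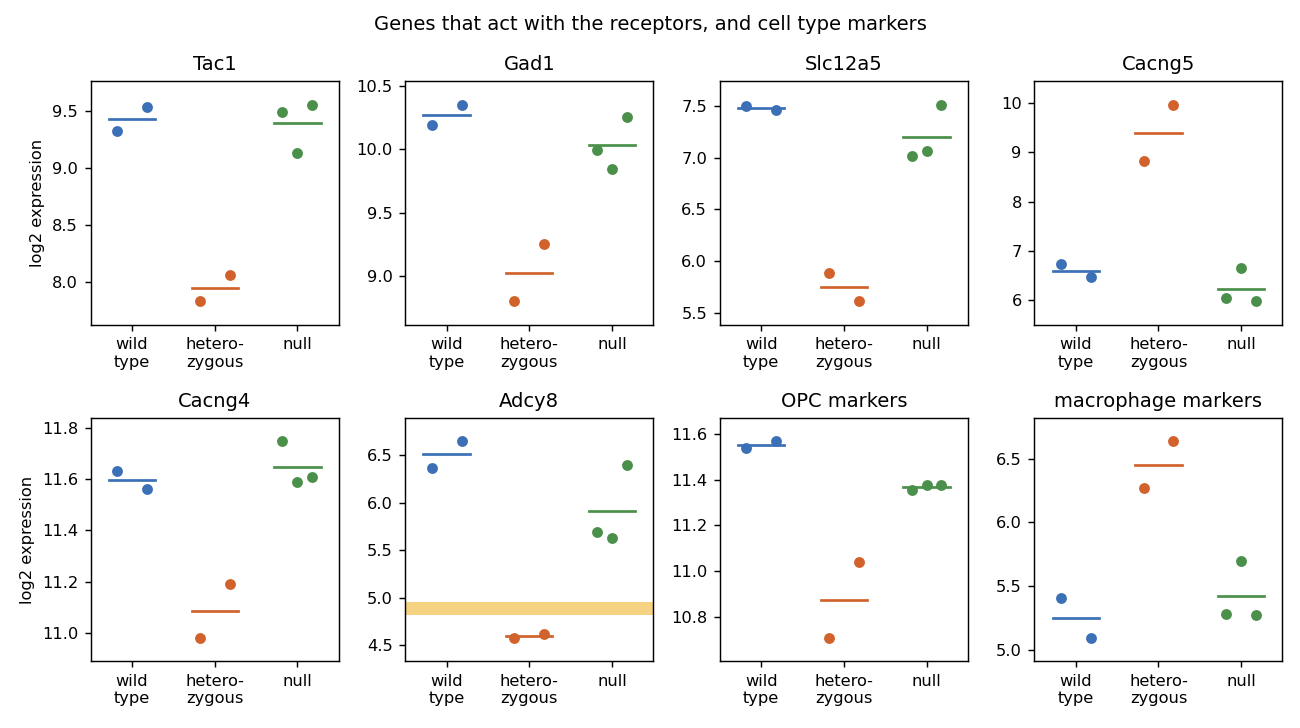
Log2 expression by array of 6 genes that act with the receptors, and the mean log2 of the progenitor (OPC) and macrophage marker lists. Points are arrays and lines group means, the vertical axes do not start at 0, and the band in the Adcy8 panel spans the 30th percentiles. In heterozygous cells Tac1, Gad1, Slc12a5, Cacng4, Adcy8 and the progenitor markers lie below both other genotypes. Cacng5 and the macrophage markers lie above them. The astrocyte list mean, not shown, was also highest on the heterozygous arrays (8.67 and 8.88, against 7.94 to 8.45 on the others).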

How the data were processed

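RNA of 7 samples of sorted tumour cells was labelled from 75 ng of total RNA with a 3' primed kit, per the labels' protocols, and hybridised to Affymetrix arrays. The deposited values are log2 expression values, made by the authors with RMA and Partek 6.6, as named in the submitters' processing notes. The annotation used is not given in the sources used here. RMA gives all arrays a common distribution, which hides any shift of all genes.

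Of 22690 probe sets, 64 were controls, 20380 named 1 gene, 691 several and 1555 none. Groups were compared with limma 3.58.1 in R 4.3.3, with a mean for each genotype over all 7 arrays. P-values were two-sided and adjusted by Benjamini-Hochberg over 9243 genes, and the threshold was 0.05. The fit was tested on simulated data. Precision is limited by the number of arrays. The receptors, gene lists and alternatives were chosen with earlier results of these data known. The text gives every receptor tested, the receptors nearest the limit of the filter, and up to 4 called genes of smallest p for each pathway list. Alternatives changed the filter, the probe set rule, the moderation, the centring, covariates and the arrays included.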

Additional observations from a re-analysis of the deposited data

How the results depend on the processing

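Every receptor called in a pairwise comparison kept its direction under all 17 alternatives, where it was tested, but the calls did not. The counts of receptors called in heterozygous against wild type (8), null against heterozygous (6) and the F test (4) became 1, 0 and 0 without moderation. They were 2, 1 and 1 with the replicate block, although same-numbered arrays share only a number (correlations of their deviations from -0.41 to 0.11), and 0, 0 and 0 without both arrays of mixed sex. With only the groups compared they were 2 and 3, and a covariate for the 3' to 5' signal of control probes left 3 in heterozygous against wild type. With 1 array left out they ran from 0 to 6, from 1 to 5 and from 0 to 4. The count in null against wild type stayed at 0 in all. The count of genes called over all 9243 fell too, in heterozygous against wild type from 938 to 97 without moderation, 217 with the replicate block, 172 with only the groups compared, 33 without wild type replicate 2 and 0 without both arrays of mixed sex. Some of these fits hold fewer arrays, and otherwise the cause was not tested. Alternatives for the genes that act with the receptors were added after the data were seen.

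Sign changes were found only for differences that passed the threshold in neither setting. In null against wild type the value became -0.079 for Gabbr1, 0.048 for Abat and 0.011 for Cacng5 with the mean of all probe sets, and 0.034 for Gria3 and 0.00624 for Tac1 with arrays centred on their medians. With the replicate block it became -0.00735 for Gabbr1, 0.033 for Gria2, 0.040 for Gria3, -0.037 for Grik5, -0.063 for Slc38a3 and -0.13 for Tacr3. Without both arrays of mixed sex it became 0.0078 for Chrna4, -0.019 for Gabrb1 and -0.050 for Grin3b, and in null against heterozygous -0.063 for Chrnd, -0.010 for Gabra3 and 0.018 for Grin2d. With 1 array left out, null against wild type ran from -0.37 to 0.0078 for Chrna4, -0.033 to 0.21 for Gabbr1, -0.019 to 0.12 for Gabrb1, -0.64 to 0.041 for Gria1, -0.30 to 0.075 for Gria2, -0.066 to 0.051 for Gria3, -0.49 to 0.35 for Gria4, -0.037 to 0.11 for Grik5, -0.050 to 0.18 for Grin3b, -0.13 to 0.52 for Tacr3, -0.063 to 0.26 for Slc38a3, -0.036 to 0.37 for Slc1a5 and -0.14 to 0.10 for Tac1. Null against heterozygous ran from -0.044 to 0.035 for Chrnd, -0.0068 to 0.46 for Gabra3 and -0.47 to 0.031 for Grin2d, and heterozygous against wild type from -0.078 to 0.056 for Htr1b.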

Other observations

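Of the 11 neuronal markers tested, 6 had a higher and 5 a lower mean in heterozygous than in wild-type cells, with a list median of 0.031 against -0.036 over all genes. Of these, 2 were called, Snap25 and Gad1, both lower, where 5.95% of all genes were called lower. Snap25, a synaptic vesicle fusion gene of the neuronal marker list, fell by 0.84 ± 0.13 (log2, SE, limma adjusted p = 0.0131). The means of Nefm, Tubb3, Nefl, Eno2 and Map2 were higher by 0.60, 0.52, 0.44, 0.30 and 0.29, and none of them passed the threshold. Dcx, Syn1 and Reln, with differences of -0.63, -0.45 and -0.24, did not pass it either.

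Other marker lists, in heterozygous against wild-type cells, had 3 genes higher and 1 lower of 12 astrocyte markers, 2 higher of 6 ependymal and choroid plexus markers and 1 higher of 10 endothelial and pericyte markers. Over all genes 4.2% were called higher and 5.95% lower. Of 9 markers of myelinating oligodendrocytes and 1 red blood cell gene, 0 passed limma's threshold.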
